A study of Mus musculus with 4 samples.

Results

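*Gata6* and 6 other genes by which large peritoneal macrophages (LPMs) are recognised were followed here in LPMs with and without a deletion of *Rxra*. The genes were *Gata6*, *Prg4*, *Garnl3*, *Icam2*, *Asz1*, *Adgre1* and *Selp*, and they were picked by name from the 18364 genes of the table, with their values in this same comparison already known. Of the 7 symbols, 6 stood in the table as such, and *Adgre1* was found under its older symbol *Emr1*. Because the choice rested on these libraries, the values of the members are given as a description and without a test. None of the 7 held its WT level in the Rxra-KO libraries, and what was left ranged from 54.5% of WT for *Prg4* to 14.4% for *Garnl3*, with *Asz1* close to the limit of detection.

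LPMs are the long-lived resident macrophages of the serous cavities, and they live beside a smaller population of monocyte-derived small peritoneal macrophages (SPMs). Their tissue identity depends on the zinc finger transcription factor GATA6, which is induced in the cavity by retinoic acid, a vitamin A metabolite. The retinoid X receptors (RXRs) bind DNA as partners of other nuclear receptors, the retinoic acid receptors among them. LPMs are also set apart by their surface, which carries high F4/80 (*Adgre1*) and CD102 (*Icam2*), and by adhesion and matrix genes that many other tissue macrophages lack.

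The series held 4 bulk RNA-seq libraries of sorted LPMs from C57BL/6 mice aged 8 weeks, 2 labelled wild type (WT) and 2 labelled Rxra-/- (Rxra-KO). Per the study, Rxra-KO mice were LysM Cre+ *Rxra* fl/fl and WT mice were *Rxra* fl/fl, so both groups carried the floxed allele and only Rxra-KO mice carried Cre, which is expressed from the *Lyz2* locus in myeloid cells. LPMs were sorted as F4/80+ CD102+ cells without MHC class II, so that the proteins of *Adgre1* and *Icam2* were part of the gate, and the study left out RNA-seq samples that did not cluster with their group. The labels do not say whether the libraries came from separate mice, so the spread between them may be technical. The limma SEs and p-values rest mostly on a variance trend shared across genes. A gene's own libraries enter little, with 227 prior against 2 residual degrees of freedom.

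Depth was low, with 652542 and 947372 recovered reads in WT against 629030 and 1047021 in Rxra-KO, and 1 read was worth a normalised read count of 0.993 to 1.51. *Rxra* itself had 20 and 28 reads in WT against 33 and 77 in Rxra-KO (log2 fold change 0.99, limma adjusted p = 0.183). A count over the whole gene includes exons that the deletion may leave in place, so it does not check the deletion, and the libraries are called by their labels. Over 8 marker lists of B cells, T cells, mast cells, eosinophils, neutrophils, platelets, endothelial and mesothelial cells, 0 of 36 genes in the table were called by limma, edgeR or DESeq2, with 6, 8 and 0 genes at an unadjusted p under 0.05, and the highest value was 103, for the platelet gene *Pf4*. MHC class II markers set WT replicate 2 apart, with a summed value of 2781 against 397 in WT replicate 1 and 192 and 710 in the Rxra-KO libraries, most of it *H2-Ab1*. Leaving out WT replicate 2 kept all members lower in Rxra-KO, as it had to, since no member overlapped between groups. The range without 1 library stands beside each member.

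*Gata6*, the transcription factor at the head of the LPM programme, was a gene of few reads. Its normalised read count was 53.7 and 71.1 in WT against 5.27 and 24.3 in Rxra-KO, from 35, 65, 3 and 24 reads. The groups did not overlap, but the Rxra-KO libraries lay far from each other, and the second held 5.28 times the scaled reads of the first (95% counting interval 1.60 to 27.4). Their spread therefore exceeded counting error, whereas in WT the corresponding ratio was 1.33 (0.869 to 2.07). The mean was 62.4 ± 12.2 in WT against 14.8 ± 13.5 in Rxra-KO (SD, n = 2), with a log2 fold change of -2.32 (SE 0.44) on the log2(value + 1) scale, and 23.0% of the WT level remained. The size of the difference was set largely by which Rxra-KO library was read: it was -1.31 without Rxra-KO replicate 1 and -3.32 without Rxra-KO replicate 2. The SE, drawn mostly from other genes, does not show that spread. In bulk RNA, fewer cells expressing a gene and less RNA per cell cannot be told apart. Mesothelial cells line the cavity. Their 4 listed markers summed to 63.6 and 86.8 in WT against 55.7 and 56.6 in Rxra-KO, most of it *Lrrn4*. Of the 4 markers only *Lrrn4* was lower, at -0.76 on the log2 scale (SE 0.35), and it was not called. The other markers were higher on few reads, and the median log2 fold change of the list was 0.47. The part of mesothelial cells in the *Gata6* values was not tested.

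**Figure D1:**
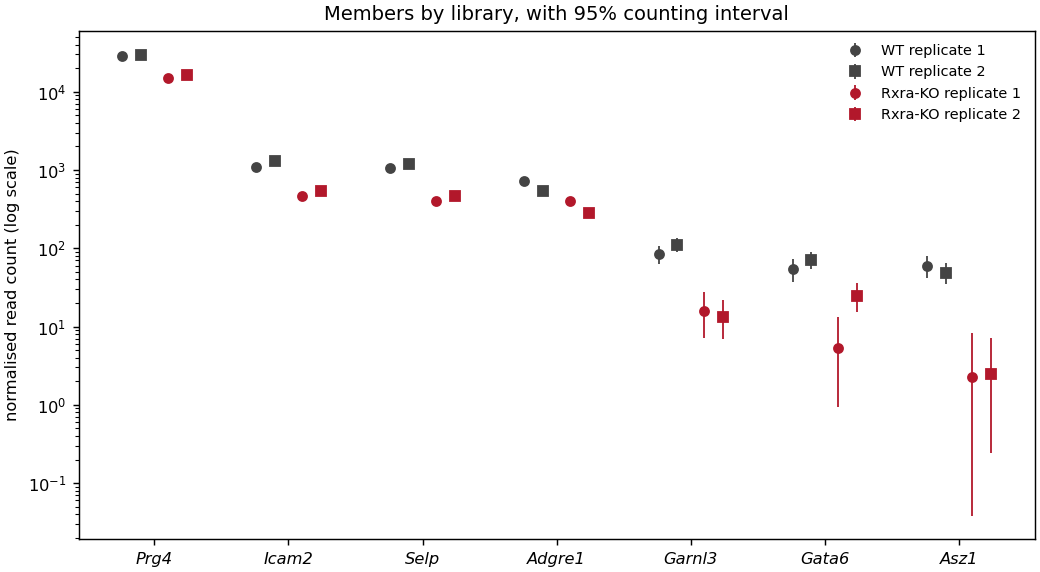
Normalised read count (log axis) of each member in the 4 libraries, WT in grey and Rxra-KO in red, circles for replicate 1 and squares for replicate 2, with bars for the 95% counting interval. In all 7 genes both Rxra-KO libraries lie below both WT libraries, and the widest ratio between libraries of 1 group is that of *Gata6* in Rxra-KO (5.27 and 24.3).

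*Prg4* encodes proteoglycan 4 (lubricin), a secreted mucin-like glycoprotein that coats and lubricates surfaces. It was the most abundant member by a wide margin, with 28429 and 29683 in WT against 15129 and 16567 in Rxra-KO. *Prg4* alone took 2.88% ± 0.00766 of all reads in WT against 1.60% ± 0.00303 in Rxra-KO (SD, n = 2). Here the libraries of a group were close together and the groups lay far apart. The log2 fold change was -0.88 (SE 0.26), the smallest of the members, and 54.5% of the WT level was left. With 46138 reads in WT against 26728 in Rxra-KO, this estimate moved little when 1 library was left out, from -0.94 to -0.81.

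*Icam2* and *Selp* encode adhesion molecules of the cell surface. *Icam2* is intercellular adhesion molecule 2, a ligand of the integrin LFA-1. Its values were 1092 and 1301 in WT against 466 and 539 in Rxra-KO, and 41.9% of the WT level was left. The log2 fold change of *Icam2* was -1.25 (SE 0.22), between -1.38 and -1.12 when 1 library was left out. *Selp* is P-selectin, better known from platelets and endothelium, where it tethers leukocytes through PSGL-1. Its values were 1062 and 1205 in WT against 400 and 462 in Rxra-KO, and 38.0% was left. The log2 fold change of *Selp* was -1.39 (SE 0.22), between -1.50 and -1.29 without 1 library. Neither gene overlapped between groups, and within each group the deeper library, replicate 2, was the higher one for both. The summed value of platelet and megakaryocyte markers was 112 and 97.6 in WT against 122 and 129 in Rxra-KO, most of it *Pf4*, and the summed value of endothelial markers was 34.8 and 21.7 against 31.6 and 39.7; the part of such cells in the *Selp* values was not tested. Since CD102 protein was part of the gate, the cells were selected to carry it in both groups, and the part of the gate in the *Icam2* value was not tested.

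*Adgre1* encodes F4/80, an adhesion G protein-coupled receptor and the classical surface marker of mouse tissue macrophages. Its values were 714 and 545 in WT against 404 and 279 in Rxra-KO. The lowest WT value stood only modestly above the highest Rxra-KO value, and in both groups replicate 2 was lower than replicate 1 by more than counting error, with ratios of 0.764 (0.672 to 0.868) in WT and 0.689 (0.581 to 0.818) in Rxra-KO. The mean was 629.5 ± 119 in WT against 341 ± 88.9 in Rxra-KO (SD, n = 2), and 54.2% of the WT level was left. The log2 fold change was -0.89 (SE 0.23), and it was -1.16 without Rxra-KO replicate 1 and -0.62 without Rxra-KO replicate 2. F4/80 was also a gate protein, and the part of the gate in this value was not tested.

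*Garnl3* and *Asz1* stand further from the known work of macrophages. *Garnl3* encodes a protein with a Rap GTPase activating domain, and *Asz1* a protein of the germ cell piRNA pathway, with ankyrin repeats, a sterile alpha motif and a leucine zipper. *Garnl3* had values of 84.0 and 111 in WT against 15.8 and 13.4 in Rxra-KO, from 55, 102, 10 and 13 reads. The log2 fold change of *Garnl3* was -2.65 (SE 0.38), between -2.85 and -2.45 without 1 library. *Asz1* had 39 and 44 reads in WT and 1 and 2 reads in Rxra-KO. The reads of *Asz1*, scaled for library size, were 29.2 times as many in WT as in Rxra-KO (95% counting interval 9.66 to 145). The width of that interval comes from the 3 Rxra-KO reads. The fitted log2 fold change of *Asz1*, -4.02 (SE 0.60), depended on how such low counts were treated, from -4.92 to -3.00 over the alternatives that kept all libraries. The ratio of the second Rxra-KO library to the first was 0.858 for *Garnl3* (95% counting interval 0.347 to 2.18). For *Asz1* it was 1.32 (0.0687 to 77.8), so counts this low do not show whether the Rxra-KO libraries agreed. No value of either gene overlapped between groups.

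RefSeq promoter windows are given here for 3 of the 7 members, with 4 windows: 1 for *Asz1*, 2 start sites for *Garnl3* and 1 for *Selp*. The search of members left out the chromosome of *Gata6*, so its lack of a window does not describe the RefSeq promoters. The 250 bases before each start are printed because *Asz1*, *Garnl3* and *Selp* were lower together, with a retinoid receptor deleted by design and *Gata6* among the members. Capitals mark a GATA motif (AGATAA or else AGATAG, with TGATAA or else TGATAG) or a nuclear receptor core sequence (AGGTCA or else AGTTCA, with GGGTCA or else GGTTCA), both searched on either strand. The build is GRCm38.p6. The windows are chr6:18109062-18109311 on the minus strand for *Asz1*, chr2:33131437-33131686 and chr2:33130620-33130869 on the minus strand for the 2 starts of *Garnl3*, and chr1:164115014-164115263 on the plus strand for *Selp*, each read 5′ to 3′ along the gene and ending at the base before the start.
Asz1: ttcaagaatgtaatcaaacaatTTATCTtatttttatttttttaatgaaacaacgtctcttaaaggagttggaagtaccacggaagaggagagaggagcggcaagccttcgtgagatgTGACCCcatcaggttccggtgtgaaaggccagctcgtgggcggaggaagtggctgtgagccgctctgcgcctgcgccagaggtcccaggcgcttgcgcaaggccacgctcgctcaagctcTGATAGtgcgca
Garnl3, start 1: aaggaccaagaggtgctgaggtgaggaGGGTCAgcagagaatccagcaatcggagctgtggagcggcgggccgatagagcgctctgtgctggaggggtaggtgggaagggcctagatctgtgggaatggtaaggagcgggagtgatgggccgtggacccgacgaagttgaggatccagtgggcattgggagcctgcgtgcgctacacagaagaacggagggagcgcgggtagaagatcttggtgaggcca
Garnl3, start 2: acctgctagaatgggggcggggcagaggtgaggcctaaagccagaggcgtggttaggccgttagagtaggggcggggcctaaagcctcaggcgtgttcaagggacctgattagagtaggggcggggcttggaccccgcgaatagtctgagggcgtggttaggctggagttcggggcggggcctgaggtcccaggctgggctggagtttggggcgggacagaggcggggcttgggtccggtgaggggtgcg
Selp: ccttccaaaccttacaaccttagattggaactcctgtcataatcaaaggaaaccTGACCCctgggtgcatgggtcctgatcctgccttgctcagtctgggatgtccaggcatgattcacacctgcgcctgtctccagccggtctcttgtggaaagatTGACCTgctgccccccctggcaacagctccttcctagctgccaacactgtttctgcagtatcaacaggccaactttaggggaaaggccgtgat
The *Asz1* window held 2 GATA matches, TTATCT at 228 to 223 bases and TGATAG at 12 to 7 bases before the start, and 1 nuclear receptor core match, TGACCC at 132 to 127 bases. The *Selp* window held no GATA match and 2 nuclear receptor core matches, TGACCC at 196 to 191 and TGACCT at 93 to 88 bases. The first start of *Garnl3* had 1 core match, GGGTCA at 223 to 218 bases, and the other had no match of either kind. Of 32851 mouse promoter windows of the same length, 26.5% held a GATA match and 38.6% a core match, so that letters such as these are common, and a match is a description and not a site. No other letters were searched, and the libraries measured no binding.

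The members differed from each other by orders of magnitude in level. Per kilobase of exon, *Prg4* led in WT with 6789 ± 207, followed by *Icam2* with 934 ± 115, *Selp* with 330 ± 29.3 and *Adgre1* with 194 ± 36.9 (SD, n = 2), and each of these 4 levels was clear of its neighbours. The lowest levels per kilobase in WT were those of *Asz1* with 31.1 ± 4.70, *Garnl3* with 22.7 ± 4.47 and *Gata6* with 19.3 ± 3.78. The *Garnl3* and *Gata6* levels overlapped between libraries, and *Asz1* stood above *Garnl3* by less than their SDs added. The secreted product *Prg4* was thus the most abundant member, and the transcription factor *Gata6* was among the least abundant. In Rxra-KO the first 4 kept their order, at 3703, 392, 125 and 105 per kilobase, although *Selp* and *Adgre1* now overlapped. The lowest levels became 4.58 ± 4.17 for *Gata6*, 3.40 ± 0.395 for *Garnl3* and 1.37 ± 0.0914 for *Asz1*, and *Gata6* and *Garnl3* again could not be separated. The *Asz1* level rests on 1 and 2 reads, and its SD leaves out their counting error. The order of these 3 in Rxra-KO is therefore not settled. The per kilobase levels use 1 exon length per gene from the annotation and not the isoforms in the libraries.

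**Figure D2:**
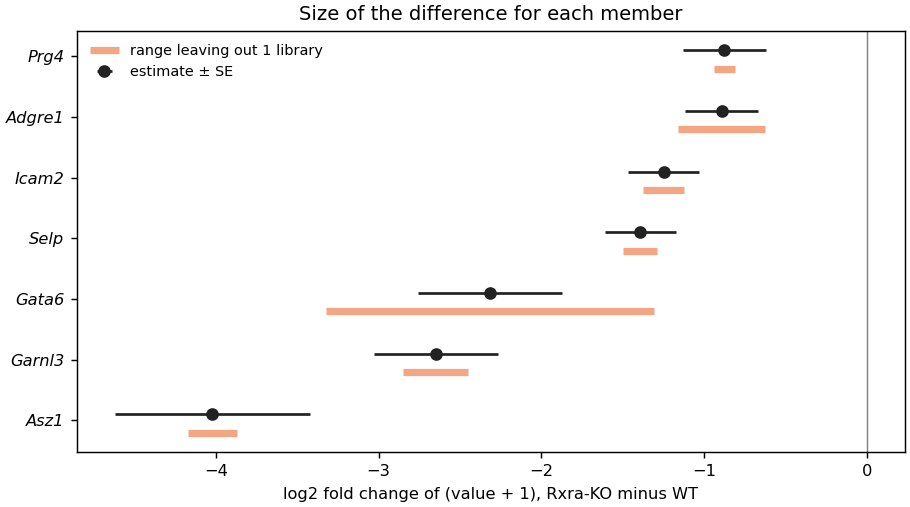
Log2 fold change of each member on the log2(value + 1) scale, Rxra-KO minus WT. Points with bars are the estimate and its limma SE, which rests mostly on a variance shared across genes. The thick bars below the points give the range when 1 library was left out. *Asz1* (-4.02), *Garnl3* (-2.65) and *Gata6* (-2.32) lie furthest from 0, and *Gata6* has the widest range, from -3.32 to -1.31.

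By size of difference the members formed a graded series, with none at its WT level. The median log2 fold change of the members was -1.39, beside 0.02 over all genes. All 7 passed the thresholds of the fit across all genes (limma adjusted p below 0.05 and a log2 fold change of 0.6 or more in either direction), which 0.969% of all genes did in the lower direction, and all 7 had both Rxra-KO libraries below both WT libraries, as did 19.3% of all genes. The members were chosen for this difference, and nothing is read from these counts. The limma calls rest on a mean-variance trend shared across genes, and without it limma called 0 genes, with 1579 at an unadjusted p under 0.05, whereas edgeR called 446 and DESeq2 235. The 3 genes with the largest differences, *Asz1*, *Garnl3* and *Gata6*, were also the 3 with the fewest reads.

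For each member the genes with the most similar profile over the 4 libraries were looked up among 2834 genes with at least 50 mean reads, by the root mean square (RMS) distance between centred log2 profiles. For *Gata6* these were *Marco*, a scavenger receptor, at a distance of 0.46, *Mlxipl* and *Pard3b*. *Marco* had 1126 and 1266 reads in WT against 137 and 401 in Rxra-KO, so that its first Rxra-KO library was also the lower one, at a far greater depth. Scaled for library size, its Rxra-KO libraries lay closer together than those of *Gata6*, and its WT libraries stood in the opposite order. The distance of 0.46 was the largest to a nearest gene among the members. For *Garnl3* they were *Slpi*, a secreted inhibitor of leukocyte proteases, at 0.20, *Cd24a* and *Gm1631*. *Asz1* was nearest to *Ccnd1*, which encodes cyclin D1, at 0.43, and then to the *Gm1631* and *Slpi* that also lay near *Garnl3*. *Icam2* and *Selp* shared *Emilin2* as nearest gene, at 0.04 from *Icam2* and 0.11 from *Selp*, with *Pilrb2* also near *Icam2* and *Plxdc2* near *Selp*. *Prg4* was closest to *Ssr4* at 0.03, then to *Zcrb1* and *Clec4e*, and *Adgre1* to *Arhgap12* at 0.06, then to *Cald1* and *Pdzd8*. With 4 libraries many genes have a similar profile, and these names describe likeness only.

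Relatives of the members were read in the same fit. The hyaluronan and proteoglycan family held the only call and was left out of the next count. In the other 6 families, of 32 genes in all, limma, edgeR and DESeq2 each called 0 genes. At an unadjusted p under 0.05 they had 6, 6 and 2 genes. Since limma called 0.969% of all genes lower and 1.32% higher, so few genes do not set these families apart from the rest. Among the GATA factors and their FOG cofactors, 0 of 6 listed genes were called, and *Gata5*, the most abundant of them, had 30, 30, 21 and 38 reads in the order WT, WT, Rxra-KO, Rxra-KO (log2 fold change -0.15, SE 0.39). The median of that family was 0.41. The other ICAMs and the chains of LFA-1 gave 0 of 4, led by *Itgb2* at -0.44 (SE 0.22), and the other selectins and their ligand 0 of 3, led by *Selplg* (PSGL-1) at -0.72 (SE 0.29). Group E adhesion receptors gave 0 of 2, with *Adgre5* (listed as *Cd97*) at 0.39 (SE 0.23), Rap GTPase activating proteins 0 of 6, with *Rap1gap2* at -0.30 (SE 0.29), and the piRNA pathway 0 of 11, with *Tdrd7* at 0.73 (SE 0.36). Most of these genes had few reads, and their SEs reached 0.81. In the hyaluronan and proteoglycan family 1 of 6 was called, and it was higher: *Lyve1*, a hyaluronan receptor that some macrophages carry, had 52 and 10 reads in WT against 736 and 851 in Rxra-KO (log2 fold change 4.94, SE 0.28). *Srgn*, the intracellular proteoglycan serglycin of the same list, was at -0.34 (SE 0.23). Whether a member differed from its relatives was not tested.

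A wider list of 22 peritoneal macrophage genes outside the members was set from general knowledge, but with earlier results of these data known. Its counts are therefore a description and no independent evidence. Of the 22 genes, 20 were lower in Rxra-KO, and the median log2 fold change was -0.83 beside 0.02 over all genes. Of these genes 10 of 22 were called lower, beside 0.969% of all genes, and 0 higher, beside 1.32%, with 0 genes higher at an unadjusted p under 0.05 in limma, edgeR or DESeq2. In 16 of the 22 both Rxra-KO libraries were below both WT libraries, beside 19.3% of all genes. The largest differences were those of the protease inhibitor *Slpi* at -3.05 (SE 0.30, limma adjusted p = 9.37e-18), *Ltbp1*, which tethers latent TGF-beta to the matrix, at -2.24 (SE 0.22), the ectonucleotidase *Nt5e* (CD73) at -2.14 (SE 0.41) and the laminin receptor integrin *Itga6* at -2.11 (SE 0.22). *Slpi* had values of 223 and 275 in WT against 30.9 and 27.3 in Rxra-KO, and *Ltbp1* had 1816 and 1952 against 469 and 338. Caveolin *Cav1* followed at -1.82, the lipoxygenase *Alox15* at -1.61, the cytokine *Tgfb2* at -1.20, coagulation factors *F10* at -1.13 and *F5* at -0.96, and the acute phase gene *Saa3* at -0.86. The *Cav1* call was lost without WT replicate 2 (-1.43), and the calls of *F10* and *F5* were lost without WT replicate 2 (-0.96 and -0.91) and without Rxra-KO replicate 1 (-0.62 and -0.77). The *Saa3* call was the least secure (limma adjusted p = 0.0243): it was lost in edgeR, in DESeq2 and in 3 of the 4 fits that left out 1 library, with a value of -0.35 without Rxra-KO replicate 1.

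The other 12 genes of that list did not pass the test. Among them *Aspa*, with 4 and 14 reads in WT against 1 and 5 in Rxra-KO, had a log2 fold change of -1.32 (SE 0.76) and was picked out after its value was seen. *Ednrb*, the endothelin receptor B, had 2411 and 2184 in WT against 1866 and 2149 in Rxra-KO. This difference of -0.20 on the log2 scale (SE 0.22) did not exceed its error. *Timd4*, the phosphatidylserine receptor of long-lived resident macrophages, had 143 and 148 in WT against 130 and 53.1 in Rxra-KO (-0.80, SE 0.29, limma adjusted p = 0.157), with 1 Rxra-KO library near WT and the other far below; without the first of these it was called, at -1.44. Fibronectin (*Fn1*) was at -0.66 (SE 0.23, limma adjusted p = 0.14) and passed in edgeR and DESeq2, and the complement-related receptor *Cd93* was at -0.55 (SE 0.22). *Lrg1* was at -0.44 (SE 0.27), with values of 155 and 149 in WT against 77.5 and 160 in Rxra-KO. The chemokine *Cxcl13* had 329 and 49.4 in WT against 165 and 141 in Rxra-KO, and its direction depended on the WT library: it was called higher without WT replicate 1 (1.61) and called lower without WT replicate 2 (-1.11).

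The study also named 5 further genes as reduced in these same Rxra-KO LPMs, so that their direction is no independent evidence, and 5 of 5 were called lower, with a median log2 fold change of -1.42. These were *Naip1*, a sensor of bacterial proteins, at -1.97, the matrix protein *Thbs1* at -1.92, the protease inhibitor *Serpinb2* at -1.42, *Arg1* (arginase 1) at -1.18 and the scavenger protein *Cd5l* at -0.90. *Arg1* resembled *Gata6* in its uneven Rxra-KO libraries: its values were 272 and 266 in WT against 56.5 and 248 in Rxra-KO, and its difference shrank to -0.12 (log2) without Rxra-KO replicate 1. *Arg1* was not called by edgeR or DESeq2 either, and *Thbs1* was not called by DESeq2 (adjusted p = 0.143). Leaving out a library also ended the call of *Serpinb2* (-1.13 without WT replicate 2, -0.90 without Rxra-KO replicate 2) and of *Cd5l* (-0.84 and -0.96 without either WT library, -0.56 without Rxra-KO replicate 1).

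**Figure D3:**
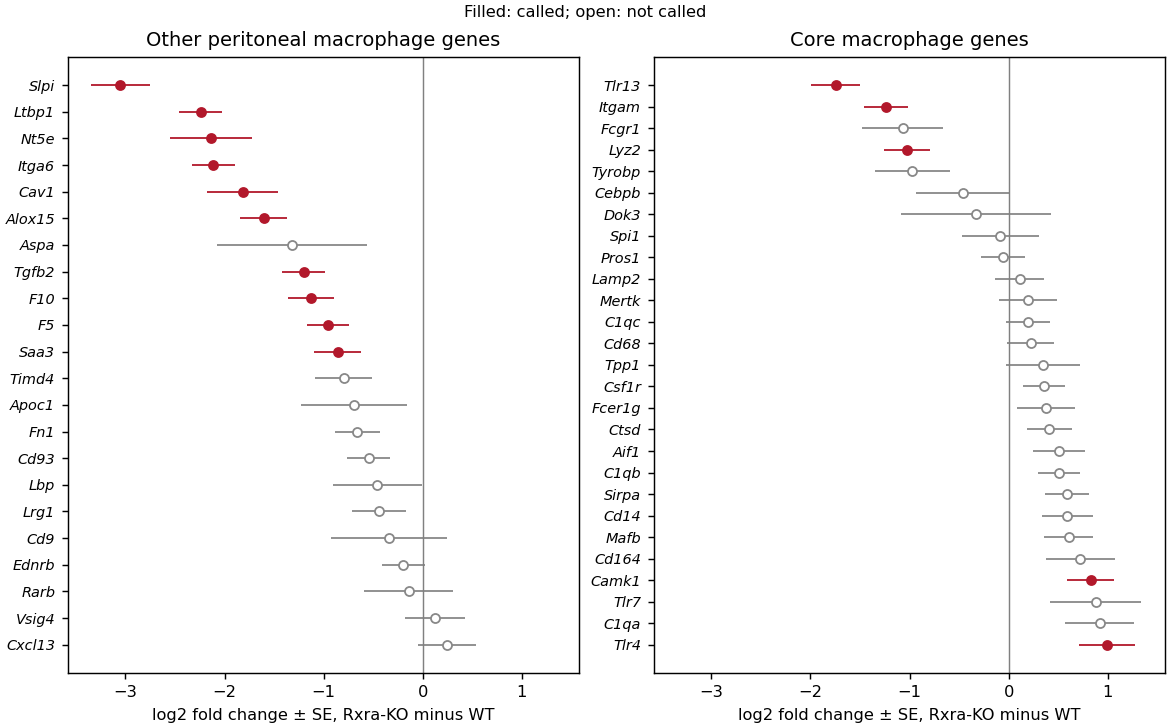
Log2 fold change with its SE (x axis, Rxra-KO minus WT) for 22 other peritoneal macrophage genes (left) and 27 core macrophage genes (right); filled red points were called and open grey points were not. On the left 10 genes were called lower and 20 lie below 0; on the right 3 were called lower and 2 higher, and 9 lie below 0.

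Genes that macrophages of many tissues express were called in both directions. Of 27 such genes 3 were called lower, beside 0.969% of all genes, and 2 higher, beside 1.32%, while 22 did not pass the test, and the median log2 fold change was 0.35. *Csf1r*, the receptor for the macrophage growth factor CSF1, had 1363 and 1061 in WT against 1454 and 1637 in Rxra-KO (0.36, SE 0.21). The complement genes *C1qb* and *C1qc* were at 0.51 (SE 0.22) and 0.19 (SE 0.22), the lysosomal protease *Ctsd* at 0.41 (SE 0.22), the inhibitory receptor *Sirpa* at 0.59 (SE 0.22) and the TAM receptor ligand *Pros1* at -0.06 (SE 0.22), none of them called. The genes called lower were *Tlr13* at -1.75 (SE 0.25), *Itgam* (CD11b) at -1.24 (SE 0.22) and *Lyz2* at -1.03 (SE 0.24). *Itgam* had 3624 and 4534 in WT against 1406 and 2102 in Rxra-KO, a difference of the size seen for *Icam2*. In the study's flow cytometry, the proteins of *Itgam* and *Csf1r* were also part of the LPM gate. The part of such a gate in the values of these genes was not tested. *Lyz2* had 14263 and 11591 against 6386 and 6230, and it is the locus that carries the Cre insertion in Rxra-KO mice only, so that its value and the Cre allele cannot be told apart. The *Lyz2* call was lost without either WT library (-0.88 and -1.18). *Tlr4*, the endotoxin receptor, at 0.99 (SE 0.28, limma adjusted p = 0.0287) and the kinase *Camk1* at 0.83 (SE 0.24, limma adjusted p = 0.0277) were called higher, but both calls were lost whichever library was left out. The difference between this list and the peritoneal list was not tested as such, and both lists were set with earlier results of these data known.

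SPM and monocyte-derived markers were higher in the same Rxra-KO libraries in which the members were lower. Of 10 listed genes 7 were called higher, beside 1.32% of all genes, and the median log2 fold change was 3.75. Their summed value was 385 and 126 in WT against 4341 and 5816 in Rxra-KO. The genes with the most reads were *Retnla* with 96, 29, 1055 and 3033 reads, *Mrc1* with 63, 25, 671 and 744, and *Fcrls* with 17, 1, 810 and 1239, in the order WT, WT, Rxra-KO, Rxra-KO. *Cd209d* and *Clec4b1* were at 0 reads in both WT libraries, whereas *Itgax* and *Ly6c2* stayed at 12 reads or fewer in all 4. The study chose several of these markers on these libraries too. The summed value of the LPM markers, which hold the 7 members with *Timd4*, *Csf1r* and *Itgam*, was 36625 and 38708 in WT against 19412 and 21679 in Rxra-KO, most of it *Prg4*. Within Rxra-KO, the library with the higher SPM sum was replicate 2. It also had higher values of *Gata6*, *Prg4*, *Icam2* and *Selp* and lower values of *Adgre1* and *Garnl3*, although *Prg4* took nearly the same share of reads in both. The *Garnl3* difference lay within counting error, and *Asz1* had too few reads to compare. Within WT, replicate 2 had the lower SPM sum, and it too had higher *Gata6*, *Prg4*, *Icam2* and *Selp* and lower *Adgre1*. The WT differences of *Gata6*, *Garnl3* and *Asz1* lay within counting error. The part of the SPM signal in the lower values of the members was not tested.

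**Figure D4:**
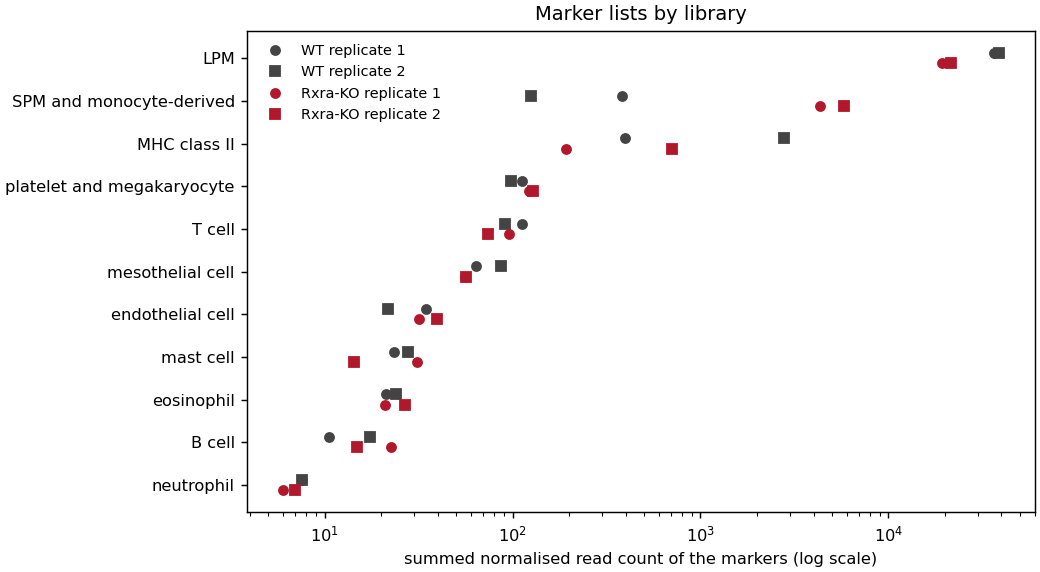
Summed normalised read count of each marker list (x axis, log scale) in the 4 libraries, WT in grey and Rxra-KO in red, circles for replicate 1 and squares for replicate 2. The LPM sum was 36625 and 38708 in WT against 19412 and 21679 in Rxra-KO, the SPM and monocyte-derived sum was 4341 and 5816 in Rxra-KO against 385 and 126 in WT, and lists of other cells lie far lower.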

How the data were processed

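The 4 libraries (2 WT, 2 Rxra-KO) came from full-length cDNA that the authors amplified (SMART-Seq v4) with no molecular identifiers, so intervals cover counting error only. The submitters' processing notes name kallisto 0.43.0, limma and GRCh38, a human build, and the reference behind these mouse libraries was therefore not settled. The deposited values are a normalised read signal after TMM scaling. They gave whole reads in 100% of cases (tolerance 0.001), with a median of 9 reads per gene and library, and 0 columns of other samples were present.

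Fold changes and SEs were computed with limma 3.58.1 (R 4.3.3) on log2(value + 1) with a mean-variance trend. The fit covered 18364 genes, all of which reached a value of 1 in 2 or more libraries. Adding 1 makes the fitted change of low genes smaller. For *Gata6*, however, edgeR (-2.00) and DESeq2 (-2.09) gave smaller changes than limma (-2.32). P-values are two-sided and adjusted by Benjamini-Hochberg, and calls needed an adjusted p below 0.05 with a log2 fold change of 0.6 or more in either direction. The trend gave 227 prior against 2 residual degrees of freedom. Counting intervals (95%) are exact, and shares of the WT level are of the mean scaled reads. Alternatives were edgeR 4.0.16 and DESeq2 1.42.0 on the recovered reads, other pseudocounts, filters and scaling, a replicate block and leaving out each library. Replicates are numbered as in the sample titles. Exon lengths came from a GENCODE basic annotation of GRCm38, and promoters from RefSeq.

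The members and gene lists were chosen with earlier results of these data known. Besides the members, the text names called genes of each list, up to 6 that were not called, highest mean value first (1 for each family), the 3 genes most like each member (1 gene is not reported here), *Rxra*, and markers of other cells that carried most of a sum or had the most or no reads, chosen after their values were seen.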

Additional observations from a re-analysis of the deposited data

How the results depend on the processing

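Over all alternatives run, the 7 members stayed lower in Rxra-KO, in 28 of 28 values without 1 library and 63 of 63 others. The first count was fixed in advance, since no member overlapped between groups. Among the others, the filters, the fit without a trend and the replicate block returned the main fold changes of the members unchanged. Nothing is therefore read from either count. Calls over all genes numbered 421 (178 lower, 243 higher), 235 with DESeq2, 0 with limma without a trend and 167 to 381 without 1 library, against 446 with edgeR. Without a trend 0 genes were called in each of the lists of other peritoneal macrophage, study-named and core macrophage genes. DESeq2 called 3 study-named and 3 core genes. Without 1 library the counts were 7 to 10 for other peritoneal macrophage genes (without WT replicate 1, 9 lower and 1 higher, *Cxcl13*), 3 to 4 for study-named genes and 2 to 3 for core genes. Fewer libraries entered those fits, with the lone library of a group assumed to vary like the other group. The cause of the other changes was not tested. The direction of *Cxcl13* reversed with edgeR (-0.28) and DESeq2 (-0.33), and some genes near 0 reversed without 1 library: the ranges were -1.11 to 1.61 for *Cxcl13*, -0.96 to 0.076 for *Lrg1*, -0.19 to 0.074 for *Pros1*, -0.38 to 0.086 for *Gata5* and -0.60 to 0.0067 for *Rap1gap2*. Deviations of same-numbered libraries from their group means had a correlation of 0.0635 over 8850 genes. With 2 libraries per group this value is the same for both pairs by construction, and it cannot settle whether the replicate numbers paired the libraries. With the replicate number as a block, 540 genes were called (229 lower, 311 higher), 11 of them other peritoneal macrophage genes. Depth limits *Asz1*, *Garnl3* and *Gata6*, with 1 to 24 reads in the Rxra-KO libraries. *Aspa* had no value under the stricter filter and no adjusted p in DESeq2.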
